A study of Mus musculus with 16 samples.

Results

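Toll-like receptors are membrane proteins with which innate immune cells recognize microbial material. Some sit at the cell surface, where they bind lipoproteins or lipopolysaccharide, while others, including the RNA sensors TLR7 and TLR13 and the DNA sensor TLR9, read nucleic acids inside endosomes. Most of them signal through the adaptor MyD88 to NF-κB and interferon regulatory factors, and mast cells are known to use several of them. The 9 genes described here, Tlr1, Tlr2, Tlr3, Tlr4, Tlr6, Tlr7, Tlr8, Tlr9 and Tlr13, were picked by symbol from the 39179 gene rows of the count files. The family was chosen because Tlr7 had been seen to rise with dexamethasone in these samples. The Tlr7 values in the dexamethasone comparisons are therefore given as a description without a test, and the other 8 genes entered by name.

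The counts came from bone marrow derived mast cells (BMMCs), which are mast cells grown from the marrow of male C57BL/6 mice aged 8 to 10 weeks during 4 weeks with kit ligand and IL3. BMMCs of PEP+/+ mice and of PEP-/- mice, which lack the phosphatase encoded by Ptpn22, were compared under 4 treatments, with 2 replicates for each of the 8 conditions and 16 samples in all. All cells received IgE at 0.05 µg/ml for 3 h, which loads the high-affinity IgE receptor (sensitized cells). Activated cells also received DNP, the antigen that cross-links this IgE, at 200 ng/ml for 1 h, and in each state one set of cells was given the glucocorticoid dexamethasone (DEX) at 1e-07 M for 8 h, so that the treatments are called IgE, IgE DNP, IgE DEX and IgE DNP DEX. The study calls its replicates biological, but neither it nor the labels say whether they came from separate mice or cultures, so the p-values measure the spread between these samples only.

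Between 8612531 and 22143526 reads per sample were counted on genes. Levels are in CPM, the counts of a gene scaled by the TMM library size of the sample. Ptpn22 had 130 to 2799 counts per PEP+/+ sample and 0 to 55 per PEP-/- sample. Summed over 9 mast cell markers the level was 63200 to 104000 CPM, whereas the T cell markers Cd3e and Cd3g and the B cell marker Ms4a1 had 0 counts and the B cell marker Cd79a had at most 11 counts (0.605 CPM). 1 replicate of each condition carries a number in its title and the other a letter. The numbered sample was the higher in 8 of 8 conditions for Tlr2, Tlr4 and Tlr13, with a median log2 difference of 0.75, 1.06 and 1.12. Of the 9 mast cell markers, it was the higher in 8 of 8 for Ms4a2, Cpa3 and Mitf and in 7 of 8 for Kit. Fcer1a and Hdc were higher in 5 of 8, Gata2 in 3 of 8, Tpsb2 in 2 of 8 and Cma1 in 1 of 8. The median log2 difference was -0.88 for Tpsb2 and -0.91 for Cma1. The numbered sample was also the higher in 8 of 8 for Adgre1, Cx3cr1 and Ccr2 of 8 macrophage or monocyte markers. The same held for Ly6g among the neutrophil markers and for the basophil marker Mcpt8. Prss34, the other basophil marker, was higher in 5 of 8, and Csf1r and Lyz2 were higher in 4 of 8. The dendritic cell markers Itgax, H2-Ab1 and Xcr1 were lower in 8 of 8. The labels do not say what the numbered and lettered series mark. A fit with the series as a replicate block is given wherever it changes the call of a member, and for the pathway genes by its counts.

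BMMCs transcribed a small set of these receptors. 6 of the 9 genes passed the filter on low counts, namely Tlr1, Tlr2, Tlr4, Tlr6, Tlr7 and Tlr13. Tlr3, which recognizes double-stranded RNA, and Tlr8, the neighbour of Tlr7 on the X chromosome, had 0 counts in all 16 samples. Tlr9 had 10 counts in all, spread over 3 samples, each of them IgE DNP: 2 counts in PEP+/+ replicate 1, 6 in PEP-/- replicate 1 and 2 in PEP-/- replicate 2. A gene with 0 counts could still lie below the limit of 3 counts, which corresponds to 0.126 to 0.391 CPM depending on the sample, a limit that covers counting error only. Of the other mouse family genes, Tlr5 and Tlr11 had 0 counts and Tlr12 had 26 counts over 11 samples.

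Levels between genes can only be compared per length. Per kb of exon, Tlr4, the lipopolysaccharide receptor, stood first in IgE cells with a mean of 3.64 CPM per kb, ahead of Tlr6 at 1.30 CPM per kb, and the ranges of the 4 samples each did not overlap. Tlr13, Tlr2 and Tlr1 followed at 0.34, 0.244 and 0.189 CPM per kb, and neighbours in this order overlapped. In IgE DNP cells Tlr4 again came first, at 5.43 CPM per kb, above Tlr6 at 0.543 CPM per kb without overlap. The order was different in the DEX samples. Tlr7 reached 4.56 CPM per kb after IgE DEX and Tlr4 4.23 CPM per kb, with overlapping ranges and Tlr7 the higher in 2 of 4 samples. After IgE DNP DEX, Tlr4 was at 5.37, Tlr7 at 3.92 and Tlr13 at 2.60 CPM per kb, again with overlap between neighbours. Within samples, Tlr4 was above Tlr7 in 4 of 4 and Tlr7 above Tlr13 in 3 of 4.

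**Figure D1:**
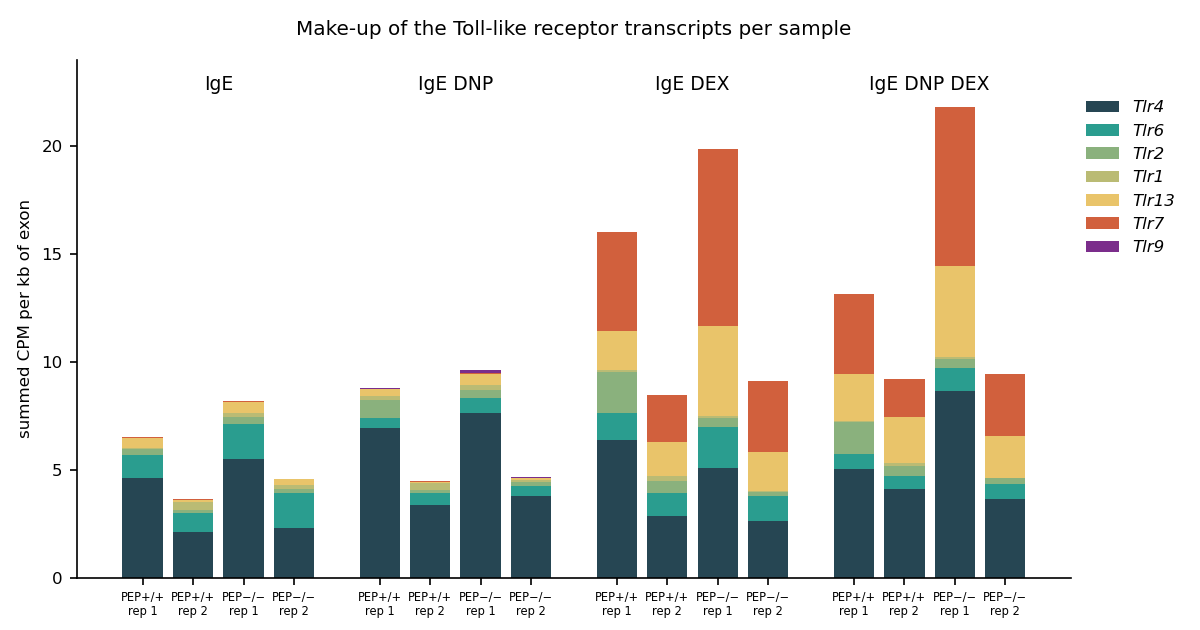
Stacked bars show, for each of the 16 samples, the CPM per kb of exon of the family members with any count (colours; Tlr3 and Tlr8 had 0 counts), grouped by treatment and labelled by genotype and replicate. The summed height was 3.67 to 8.17 in IgE and 8.46 to 19.8 in IgE DEX samples, and the Tlr7 and Tlr13 segments make up most of the added height.

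As a share of the summed CPM per kb of the family, Tlr4 made up 50.3 to 70.7% in IgE samples and 75.4 to 80.7% in IgE DNP samples. With DEX its share was 25.5 to 39.9% in sensitized and 38.5 to 44.9% in activated cells. Tlr7 held 0.273 to 1.74% in IgE samples and 25.5 to 41.2% in IgE DEX samples. The summed level of the family was 4.48 to 9.61 CPM per kb after IgE DNP and 9.2 to 21.8 CPM per kb after IgE DNP DEX. Tlr13 held 2.75 to 7.32% in IgE and 11.2 to 21% in IgE DEX samples. The samples with and without DEX did not overlap in the share of Tlr4, Tlr7 or Tlr13. The sum includes Tlr7, whose rise chose the family, so that rise by itself lowers the share of every other member. Tlr4 itself stood at 11.7 to 42.5 CPM without and at 14.5 to 48.1 CPM with DEX.

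Among the endosomal receptors, Tlr7 (ENSMUSG00000044583), a sensor of single-stranded RNA, lies on the minus strand of chromosome X of GRCm38 from 167304929 to 167330558. Without DEX it was close to undetected, with 0 to 3 counts in each of 8 samples. In IgE DEX samples it stood at 18.7 and 8.79 CPM in PEP+/+ and at 33.4 and 13.5 CPM in PEP-/- cells. In IgE DNP DEX samples it stood at 15.2 and 7.18 CPM in PEP+/+ and at 30.0 and 11.7 CPM in PEP-/- cells. Each of the 8 DEX samples was above each of the 8 others, and within each DEX condition the first value, from the numbered series, was the higher. With counts pooled, 1273 counts after IgE DEX stood against 7 after IgE, a ratio of 148 at equal library size with a 95% interval of 71.7 to 369. In activated cells 738 counts stood against 2, a ratio of 391 with an interval of 108 to 3240. These intervals cover counting error only and leave out the spread between samples. The width of the second follows from the 2 counts. Neither interval is a test of the rise, which was the reason the family was chosen. The fitted log2 fold changes were 7.06 (SE 0.67) in sensitized and 8.23 (SE 0.77) in activated cells, both of which depend on how such low counts are handled. DNP left no called difference in Tlr7 within the DEX samples, with a log2 fold change of -0.24 (SE 0.44, edgeR adjusted p = 0.801).

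**Figure D2:**
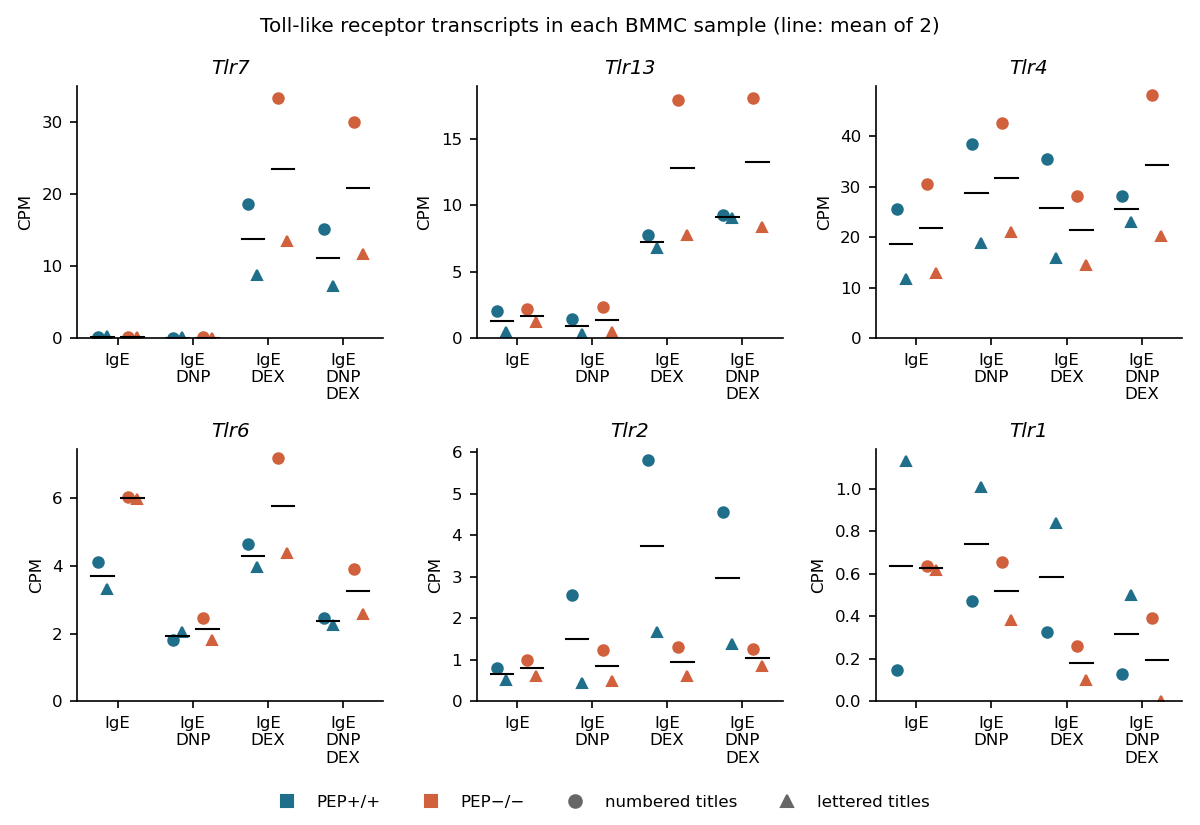
CPM of the 6 members that passed the filter, by treatment on the x axis, with 1 point per sample, colour for genotype, circles for numbered and triangles for lettered titles, and a line at the mean of 2. Tlr7 and Tlr13 are high in all DEX samples, Tlr6 is lower in the DNP than in the matching samples without DNP, and circles lie above triangles throughout for Tlr2, Tlr4 and Tlr13.

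Tlr13 (ENSMUSG00000033777), the endosomal sensor of bacterial ribosomal RNA, lies on the plus strand of chromosome X from 106143204 to 106160493. It was present at low level without DEX and rose with DEX in both states. In PEP+/+ cells it stood at 2.06 and 0.434 CPM after IgE and at 7.75 and 6.77 CPM after IgE DEX. In PEP-/- cells the values were 2.19 and 1.18 CPM after IgE and 17.9 and 7.73 CPM after IgE DEX. Activated cells had 0.338 to 2.30 CPM without DEX, whereas IgE DNP DEX gave 9.24 and 9.06 CPM in PEP+/+ and 18.1 and 8.37 CPM in PEP-/- cells. The 8 samples with DEX (lowest 6.77 CPM, median 8.72, highest 18.1) did not overlap the 8 without (lowest 0.338, median 1.30, highest 2.30). In sensitized cells the log2 fold change was 2.74 (SE 0.59, edgeR adjusted p = 0.0129). In activated cells, which share no samples with the former comparison, it was 3.33 (SE 0.62, edgeR adjusted p = 0.00566). Tlr13 was the 1 of 5 tested genes of the family (all but Tlr7) to rise in each comparison and 0 fell. Of all 13305 genes tested, 5.40% rose and 3.98% fell with DEX in sensitized cells, and 5.67% rose and 4.99% fell in activated cells. Over the alternatives the adjusted p of Tlr13 in edgeR or DESeq2 ranged from 1e-13 to 0.176 in sensitized and from 1.64e-18 to 0.0778 in activated cells. The lowest p in each came from edgeR without a filter on low counts, where the log2 fold change in sensitized cells was again 2.74, and the cause was not tested.

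The call in sensitized cells was lost in edgeR when either PEP+/+ IgE replicate 2, PEP-/- IgE DEX replicate 1 or PEP-/- IgE replicate 2 was left out (adjusted p = 0.0502, 0.0518 and 0.0687). Within 1 genotype alone, the log2 fold changes were 2.51 in PEP+/+ and 2.96 in PEP-/- sensitized cells and 3.33 and 3.32 in activated cells, with adjusted p of 0.176, 0.0948, 0.0778 and 0.0661 in edgeR. In these 4 comparisons 2.25, 2.36, 1.98 and 2.09% of all genes rose. All 4 were called with the replicate block, at 2.65, 2.89, 3.5 and 3.38 and edgeR adjusted p of 0.000998, 0.000252, 0.000292 and 9.14e-05, where 7.81, 7.67, 9.11 and 8.76% of all genes rose.

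Dexamethasone acts through the glucocorticoid receptor, which binds DNA at paired half-sites of the letters AGAACA or their reverse complement TGTTCT. The 250 bases before each RefSeq start on GRCm38.p6 were searched for the half-site on both strands, in 9 windows of 7 members. Tlr4 and Tlr7 have no window in the table used. The half-site was found in 1 window, that of Tlr13, beginning 51 bases before the RefSeq start. The stretch around it is shown because Tlr13 is the tested member that rose with DEX. It covers chrX:106143212-106143241 on the plus strand, with the half-site in capitals:

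Tlr13: tcctaagagtttAGAACAaccatcacgggg

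The GENCODE gene model starts upstream of this stretch, at 106143204. Of all 32851 windows, 16.1% hold the half-site, and 3 (0.00913%) hold AGAACA, 3 bases of any kind and then TGTTCT. A match describes the letters in a window and is not evidence of binding.

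Among the surface receptors, Tlr6 (ENSMUSG00000051498), which pairs with TLR2 to bind diacylated lipopeptides, lies on the minus strand of chromosome 5 from 64952031 to 64960097. It fell with DNP. In PEP+/+ cells it stood at 4.11 and 3.30 CPM after IgE and at 1.80 and 2.03 CPM after IgE DNP. In PEP-/- cells it stood at 6.01 and 5.97 CPM after IgE and at 2.46 and 1.82 CPM after IgE DNP. Each IgE DNP sample was below each IgE sample. The level fell by 1.22 on the log2 scale (SE 0.25, edgeR adjusted p = 0.00542), with an adjusted p of at most 0.0294 when any 1 sample was left out. Under DEX the values were 4.63 and 3.95 CPM without and 2.47 and 2.25 CPM with DNP in PEP+/+ cells, and 7.16 and 4.37 CPM without and 3.91 and 2.57 CPM with DNP in PEP-/- cells. Here too no sample with DNP reached the lowest one without, and the level fell by 0.85 on the log2 scale (SE 0.24, edgeR adjusted p = 0.0402). This second call is narrow, since it remained in 2 of the 16 fits that leave out 1 sample, those without PEP-/- IgE DEX replicate 2 and without PEP-/- IgE DNP DEX replicate 1. The others gave adjusted p of up to 0.168. Tlr6 was the 1 of 6 tested members to fall in each DNP comparison, and 0 rose. Without DEX the 6 include Tlr7, whose 0 to 3 counts per sample could hardly give a call there. Without DEX, 9.07% of all tested genes rose with DNP and 7.58% fell, and under DEX 7.19% rose and 5.42% fell. Within 1 genotype, Tlr6 was not called without the block in PEP+/+ cells without DEX or in either genotype under DEX (edgeR adjusted p = 0.175, 0.23 and 0.25). The level fell by 0.96, 0.84 and 0.84 with the block in these comparisons (edgeR adjusted p = 0.0288, 0.0318 and 0.0281), where 9.91, 10.5 and 9.43% of all genes fell.

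Tlr1 shares most of its sequence with Tlr6 and lies 18468 bp from it. It had 108 counts over all samples and 0 to 1.13 CPM, and none of its comparisons was called. Reads that fit both genes were not counted on either, so the level of both is uncertain to that extent.

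Tlr4 (ENSMUSG00000039005, chromosome 4 from 66827584 to 66930284, plus strand) had 11.7 to 48.1 CPM, and its replicates lay far apart. After IgE it stood at 25.6 and 11.7 CPM in PEP+/+ and at 30.6 and 12.9 CPM in PEP-/- cells. After IgE DNP it stood at 38.5 and 18.8 CPM in PEP+/+ and at 42.5 and 21 CPM in PEP-/- cells. The groups overlap, but within the numbered and within the lettered series each of the 4 differences was positive, between 0.47 and 0.68 on the log2 scale. Without the block the log2 fold change was 0.58 (SE 0.45, edgeR adjusted p = 0.484). With the replicate block it was 0.61 (SE 0.14, edgeR adjusted p = 0.00301), in a fit that called 18.6% of all genes as higher and 19.3% as lower. Over the alternatives its adjusted p ranged from 0.00301 to 0.805. Under DEX the blocked difference was smaller, at 0.39 (SE 0.14, edgeR adjusted p = 0.0372), where 18.4% of genes were called as higher and 19.2% as lower, and 3 of 4 same-series differences were positive. Without the block it was 0.33 (SE 0.45, adjusted p = 0.71, edgeR), and the alternatives ranged from 0.0372 to 0.998. Within 1 genotype the block called Tlr4 without DEX in PEP+/+ (0.63) and PEP-/- cells (0.58) and under DEX in PEP-/- cells (0.64), with edgeR adjusted p of 0.0376, 0.0369 and 0.0326 against 0.795, 0.805 and 0.747 without the block, where 11.2, 13.3 and 10.3% of all genes rose. Tlr4 differed little with DEX, by 0.22 (SE 0.45) in sensitized and -0.03 (SE 0.45) in activated cells on the log2 scale, and neither was called by edgeR (adjusted p = 0.899 and 0.984).

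Tlr2 (ENSMUSG00000027995, chromosome 3 from 83836272 to 83841767, minus strand), the receptor for bacterial lipoproteins, was low, with 4 to 89 counts per sample. In PEP+/+ cells it stood at 0.808 and 0.520 CPM after IgE and at 5.80 and 1.68 CPM after IgE DEX. In PEP-/- cells the values were 1.00 and 0.617 CPM after IgE and 1.30 and 0.610 CPM after IgE DEX. In PEP+/+ cells both DEX values thus lay above both IgE values. In PEP-/- cells DEX replicate 1 lay above both IgE values, and replicate 2, with 6 counts, did not. Averaged over genotypes the log2 fold change was 1.38 (SE 0.64, edgeR adjusted p = 0.268). With the replicate block it was 1.25 (SE 0.32, edgeR adjusted p = 0.00949), in a fit that called 12.9% of genes as higher and 13.8% as lower. It was made up of 2.39 in PEP+/+ cells (edgeR adjusted p = 0.0013, against 0.236 without the block, where 7.81% of genes rose) and 0.11 in PEP-/- cells (edgeR adjusted p = 0.922). Over the alternatives the adjusted p of the average ranged from 0.00949 to 1. The difference between genotypes in this response was -2.15 (SE 1.28) without and -2.28 (SE 0.65) with the block, and neither passed the adjustment over all genes in edgeR (adjusted p = 1 in both). In activated PEP+/+ cells Tlr2 stood at 2.55 and 0.450 CPM without and at 4.56 and 1.37 CPM with DEX. Activated PEP-/- cells had 1.23 and 0.495 CPM without and 1.25 and 0.856 CPM with DEX. All 4 same-series differences were above 0. The blocked log2 fold changes were 0.95 in PEP+/+ and 0.31 in PEP-/- cells. Neither was called by edgeR (adjusted p = 0.124 and 0.718). The blocked difference between genotypes was -0.65 (SE 0.64) there.

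**Figure D3:**
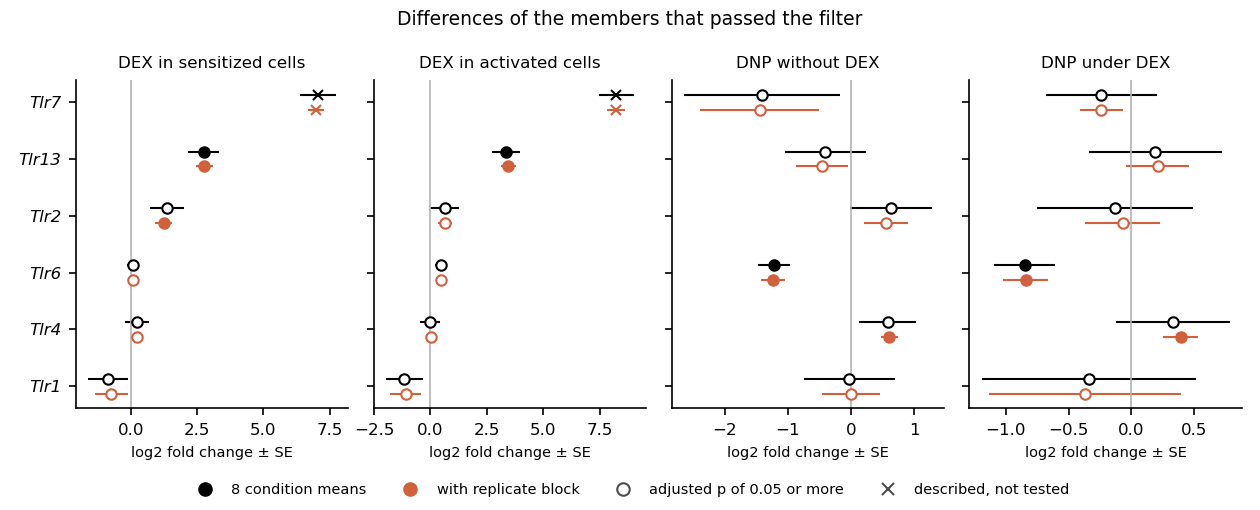
Log2 fold change with its SE for the 6 members in the 4 treatment comparisons, averaged over genotypes (x axis, a separate scale per panel), from the fit of 8 condition means (black) and with the replicate block (orange). Filled circles had an adjusted p under 0.05, open circles did not, and crosses mark Tlr7 where it was not tested. Filled in black are Tlr13 with DEX and Tlr6 with DNP, and the block adds Tlr2 with DEX in sensitized cells and Tlr4 with DNP.

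The response of the family to DNP did not differ detectably between cells with and without DEX. In the DNP by DEX interaction 0 of 5 tested members were called by edgeR, where 0.331% of all genes were, and 0 of the 5 had an unadjusted p under 0.05. DESeq2 also called 0.

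The comparison of PEP-/- with PEP+/+ BMMCs asks whether loss of the phosphatase alters these receptors. Averaged over the treatments, 0 of 6 members were called by edgeR, against 1.59% of all genes, 1 had an unadjusted p under 0.05, and DESeq2 called 0. In each single treatment 0 of 6 were called, where 0.00752% of all genes were, which is 1 gene each time. The interactions of genotype with DEX and with DNP called 0 members and 0% of all genes. These counts include Tlr7, whose 0 to 3 counts per sample without DEX could hardly give a call outside the DEX treatments. Without the replicate block, 0 members had an unadjusted edgeR p under 0.05 in these 4 treatments and both interactions, and DESeq2 called 0. The blocked edgeR fit gave such a p to 1 member in IgE cells, 0 in IgE DNP cells and 2 in each DEX treatment. It gave 1 in the interaction of genotype with DEX and 0 in that with DNP.

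With the replicate block, 2 members passed the test in the average over the treatments, where 17.4% of all genes did. Tlr2 was lower in PEP-/- cells by 0.91 on the log2 scale (SE 0.23, log2 fold change -0.91, edgeR adjusted p = 0.0137, against 0.354 without the block and 0.0137 to 0.649 over the alternatives). In same-series pairs it was the lower in PEP-/- cells in 5 of 8 and the higher in 3, with log2 differences from -1.81 to 0.20. Tlr6 was higher by 0.43 (SE 0.13, edgeR adjusted p = 0.0356, against 0.262 without the block and 0.0356 to 0.714 over the alternatives), and in same-series pairs it was the higher in PEP-/- cells in 7 of 8. In IgE DEX cells alone, the blocked fit called 0.564% of all genes and, of the family, Tlr2, with a log2 fold change of -1.90 (SE 0.39, edgeR adjusted p = 0.0491, against 1 without the block and 0.0491 to 1 over the alternatives).

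Tlr7 can be compared between genotypes where it is expressed, in the DEX samples. In the 4 same-series pairs its level in PEP-/- cells was 1.79, 1.54, 1.97 and 1.63 times that in PEP+/+ cells. All pairs showed the same direction, but the 2 series lay further apart than the genotypes, so that the groups overlapped. Averaged over both DEX treatments, a contrast added after seeing the data, the log2 fold change was 0.84 (SE 0.44, edgeR adjusted p = 0.93), where 0.00752% of genes were called. With the replicate block it was 0.80 (SE 0.17, edgeR adjusted p = 0.0235), where 3.08% of genes were called. Over the alternatives its adjusted p ranged from 0.0235 to 1. Tlr2 went the other way, at 0.224 to 0.623 times the PEP+/+ level in the same 4 pairs, with a log2 fold change of -1.68 (SE 0.62, adjusted p = 0.731) without and -1.64 (SE 0.29, adjusted p = 0.00987) with the block in edgeR. Tlr13 was the higher in PEP-/- cells in 3 of the 4 pairs, with ratios of 0.924 to 2.31, and was not called in either fit (edgeR adjusted p = 1 and 0.28).

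**Figure D4:**
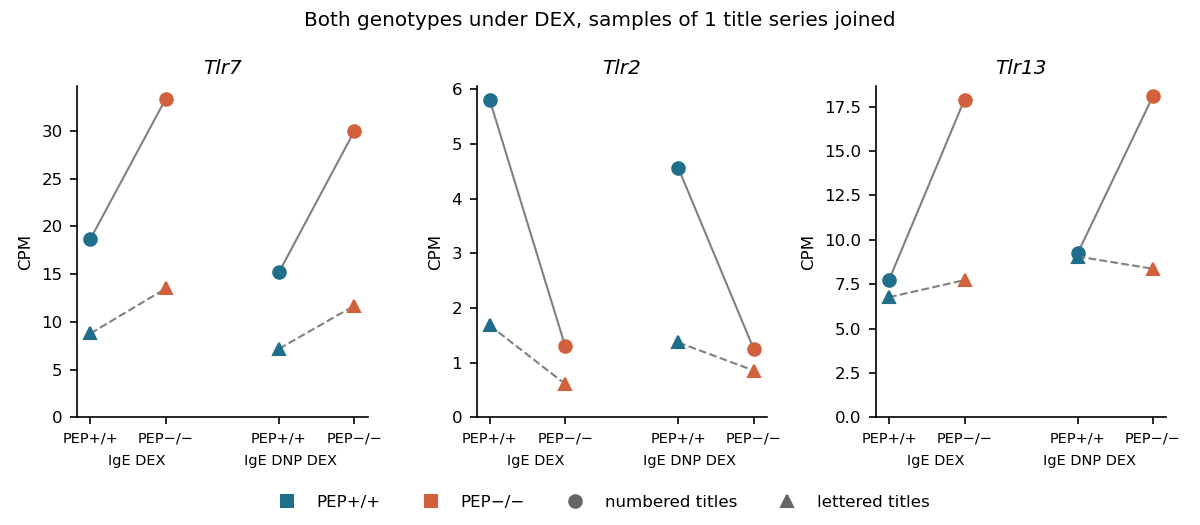
CPM of Tlr7, Tlr2 and Tlr13 in PEP+/+ and PEP-/- samples of the 2 DEX treatments, with lines joining samples of the same title series (circles and solid lines numbered, triangles and broken lines lettered). All 4 lines rise for Tlr7 and fall for Tlr2, while 1 of 4 falls for Tlr13.

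The levels of other cell types were read beside these results, since in bulk samples more cells of a type and more RNA per cell cannot be told apart. The summed level of 8 macrophage or monocyte markers was 127 to 305 CPM after IgE and 362 to 859 CPM after IgE DEX, and 75.8 to 220 CPM after IgE DNP and 285 to 598 CPM after IgE DNP DEX. Cx3cr1 alone accounts for that increase, because the other 7 markers together had 16.8 to 79.4 CPM after IgE and 7.11 to 22.4 CPM after IgE DEX. Of the other macrophage or monocyte markers C1qa had 0 counts in all samples, Mrc1 had at most 1 count, Marco at most 2 and Csf1r at most 1.05 CPM, whereas Adgre1 (1.05 to 6.38 CPM), Lyz2 (3.12 to 11 CPM) and Ccr2 (0.937 to 68.4 CPM) were counted in all 16 samples. The 7 dendritic cell markers summed to 15.4 to 43.1 CPM after IgE and 14.9 to 29.9 CPM after IgE DEX. Basophil markers summed to 24.5 to 87.9 CPM after IgE and 19.8 to 84.8 CPM after IgE DEX. Neutrophil markers stayed at or under 2.35 CPM. Between genotypes, the macrophage or monocyte markers summed to 75.8 to 490 CPM (median 255) in PEP+/+ and 168 to 859 CPM (median 375) in PEP-/- samples, and the dendritic cell markers to 14.9 to 42.5 CPM (median 20.0) and 23.5 to 43.6 CPM (median 31.2), with PEP-/- the higher in 8 of 8 same-series pairs for both. Of the 4 macrophage or monocyte markers tested 1 was called, Cx3cr1, with a log2 fold change of 0.76 for PEP-/- against PEP+/+ averaged over treatments (edgeR adjusted p = 0.0278), beside 0.77 for Lyz2, 0.78 for Ccr2 and -0.03 for Adgre1 (edgeR adjusted p = 0.164, 0.643 and 0.995). Of the 3 dendritic cell markers tested, H2-Ab1, Itgax and Xcr1, 0 were called, and H2-Ab1 stood at 0.68 (edgeR adjusted p = 0.0769). Itgax and Xcr1 were not called with the replicate block either. Basophil markers summed to 19.8 to 122 CPM (median 61.9) in PEP+/+ and 30.0 to 54.9 CPM (median 47.0) in PEP-/- samples. For these PEP-/- was the higher in 4 of 8 same-series pairs. With the replicate block Cx3cr1, Lyz2, Ccr2 and H2-Ab1 were all called as higher in PEP-/- cells (edgeR adjusted p = 5.53e-05, 0.0273, 0.000607 and 0.000627), in the same comparison as Tlr2, Tlr6, Lgmn and Irf7. The part of these cells in the receptor levels, between treatments or genotypes, was not tested.

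Among the genes with the profile most like that of Tlr7, by Pearson correlation of log2 CPM over the 16 samples, were Mfhas1 (r = 0.986), Dhrs7 (0.984), Ckap4 (0.984) and Ank (0.982). The samples form 2 sets, with and without DEX, so these coefficients describe the step between them. Ckap4 went from 1.42 to 2.63 CPM without to 30.4 to 62.0 CPM with DEX, and Mfhas1 from 4.84 to 6.83 to 58.4 to 111 CPM. Tlr13 correlated at 0.942 and ranked 78 among the tested genes. Tlr2, Tlr6, Tlr4 and Tlr1 followed at 0.449, 0.296, 0.184 and -0.508.

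The genes that carry and signal for these receptors were followed in a list of 43, of which 39 were tested. With DNP in cells without DEX, 11 rose and 3 fell, where 9.07% of all 13305 genes rose and 7.58% fell. The median log2 fold change was 0.18, against a median of 0 over all genes. Inhibitors of the pathway were the role with the largest share, with 4 of 5 rising. Tnfaip3, the ubiquitin-editing enzyme A20, went from 40.9 to 54.7 CPM after IgE to 341 to 613 CPM after IgE DNP, a log2 fold change of 3.22 (SE 0.21, edgeR adjusted p = 1.91e-06). Tollip, Tnip1 and Irak3 rose by 1.63, 1.20 and 0.64. Among the transcription factors 3 of 5 rose, namely Irf5 by 2.90, Nfkb1 by 1.95 and Rela by 1.24. Cd14, the co-receptor that hands lipopolysaccharide to TLR4, went from 0.434 to 1.03 CPM to 2.46 to 4.68 CPM, a log2 fold change of 2.24 (SE 0.36, edgeR adjusted p = 0.00143). The groups did not overlap for Tnfaip3 or Cd14. The kinases and ligases Traf3 and Irak2 rose by 1.16 and 0.61 and the adaptor Ticam1 by 0.92. Tab1 fell by 1.03, Cnpy3, a chaperone of the receptors, by 0.55, and the shared adaptor Myd88 by 0.44 on the log2 scale. Myd88 stood at 60.6 to 70.9 CPM after IgE and 44.5 to 52.8 CPM after IgE DNP.

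**Figure D5:**
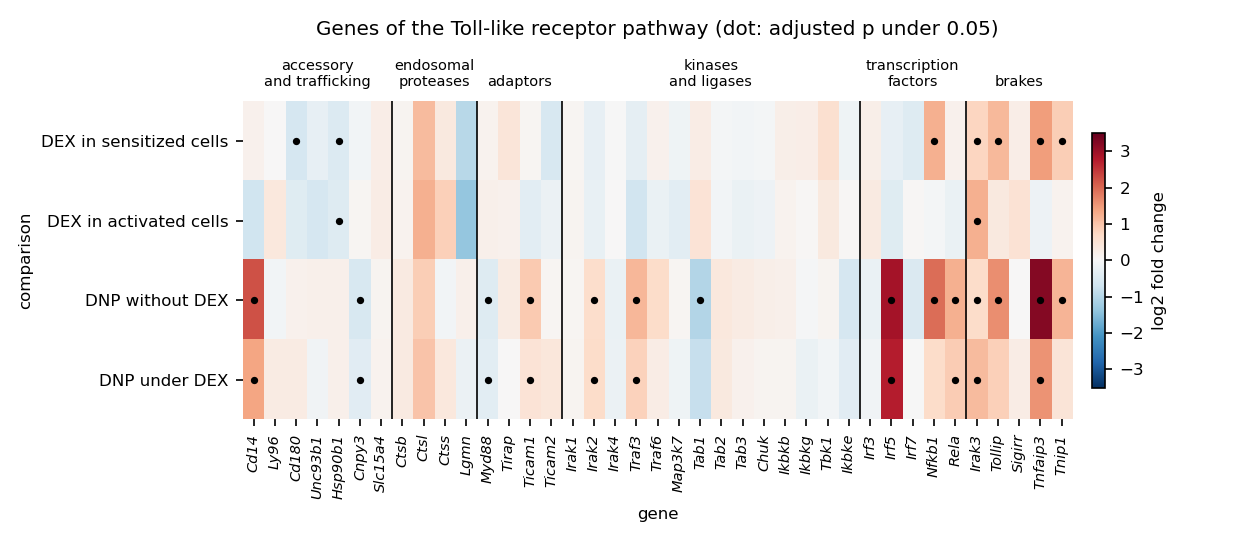
Log2 fold changes (colour scale) of the 39 tested pathway genes (columns, ordered by role) in the 4 treatment comparisons (rows), with a dot where the edgeR adjusted p was under 0.05. DNP gave 14 dots in the row without DEX and 10 in the row under DEX. In the row without DEX their share is largest among the brakes (4 of 5) and transcription factors (3 of 5).

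Under DEX, 8 of the 39 rose with DNP and 2 fell, where 7.19% of all genes rose and 5.42% fell. Irf5 rose by 2.75, Tnfaip3 by 1.57 and Cd14 by 1.38, and Irak3, Rela, Traf3, Irak2 and Ticam1 by 1.11, 0.88, 0.81, 0.64 and 0.49. The 2 that fell were Cnpy3 (log2 fold change -0.39) and Myd88 (-0.37). The calls of Cnpy3, Myd88 and Ticam1 were narrow (edgeR adjusted p = 0.038, 0.0456 and 0.0361). Over the alternatives in edgeR or DESeq2 their adjusted p reached 0.633, 0.383 and 0.604. Tnfaip3 was the 1 pathway gene called in the DNP by DEX interaction, with a difference of -1.64 between the responses (edgeR adjusted p = 0.0346), where 0.331% of all genes were called. It kept this call in 2 of 16 fits without 1 sample, with adjusted p of up to 0.129 in the others. In the blocked fit Tnfaip3 (-1.64), Nfkb1 (-1.32) and Tollip (-0.80) were called, 3 of the 39, where 1.57% of all genes were. DEX itself raised 5 and lowered 2 of the 39 in sensitized cells, where 5.40% of all genes rose and 3.98% fell. Of the 5 that rose 4 are inhibitors, Tnfaip3 by 1.47, Tollip by 1.14, Tnip1 by 0.86 and Irak3 by 0.76, beside Nfkb1 by 1.25. The call of Tollip was the narrowest of these (edgeR adjusted p = 0.0444, and up to 0.386 over the alternatives in edgeR or DESeq2). In activated cells, where 5.67% of all genes rose and 4.99% fell, DEX raised 1, Irak3, from 30.8 to 39.1 CPM to 69.3 to 89.4 CPM (log2 fold change 1.24, SE 0.15, edgeR adjusted p = 0.000418). The chaperone Hsp90b1, which Toll-like receptors need to fold, fell with DEX in both states, by 0.48 and 0.46 on the log2 scale. These calls were narrow (edgeR adjusted p = 0.0249 and 0.0265, and up to 0.216 and 0.245 over the alternatives in edgeR or DESeq2). Cd180, a Toll-like receptor homologue, fell by 0.58 in sensitized cells (edgeR adjusted p = 0.0297, and up to 0.349 over the alternatives in edgeR or DESeq2). Unc93b1, which takes the nucleic acid sensors to the endosome, stood at 8.37 to 14.5 CPM after IgE and 6.84 to 9.67 CPM after IgE DEX and was not called in edgeR. The median over the 39 genes was 0.09 in sensitized and 0.04 in activated cells.

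The replicate block moved these counts from 7 to 11 called genes with DEX in sensitized cells (8 rose and 3 fell, against 12.9% and 13.8% of all genes) and from 2 to 19 in activated cells (10 and 9, against 15.9% and 17.4%). With DNP it moved them from 14 to 20 without DEX (15 and 5, against 18.6% and 19.3%) and from 10 to 18 under DEX (15 and 3, against 18.4% and 19.2%). Between genotypes, averaged over treatments, 2 of the 39 were called, where 1.59% of all genes were, and both were higher in PEP-/- cells. Lgmn, an endosomal protease that can process nucleic acid-sensing receptors, had a log2 fold change of 1.41 (SE 0.31, edgeR adjusted p = 0.0451), and Irf7, the interferon regulatory factor downstream of TLR7 and TLR9, one of 1.34 (SE 0.26, edgeR adjusted p = 0.0281). Irf7 stood at 1.25 and 1.56 CPM in PEP+/+ and at 3.37 and 5.19 CPM in PEP-/- cells after IgE. Lgmn kept its call in 0 of 16 and Irf7 in 2 of 16 fits without 1 sample, while with the block both were called, among 8 of the 39 genes, where 17.4% of all genes were called. In single treatments the block called Irf7 after IgE (1.60) and after IgE DNP (1.72), where 1.69% and 1.86% of all genes were called.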

How the data were processed

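Stranded mRNA libraries made from the total RNA of 16 BMMC samples were sequenced. Per the labels and the study's methods, the authors aligned reads with TopHat2 to GRCm38 and counted them per gene with HTSeq, and they deposited raw counts for 39179 Ensembl genes. Of each file's total, 29.05 to 49.62% lay on rows that name no gene and was left out. Names and positions came from GENCODE M21, where 96.21% of identifiers were found, and promoter windows from RefSeq (GRCm38.p6). The labels and the study's methods give different IgE doses, and the labels' dose is used.

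Counts were tested with edgeR 4.0.16 in R 4.3.3 (TMM, filterByExpr with a minimum count of 10, glmQLFit and glmQLFTest) on 8 condition means with 8 residual degrees of freedom. The common biological coefficient of variation was 0.312. The threshold was an adjusted p under 0.05 (Benjamini-Hochberg, over 13305 genes), and the functions were tested on simulated data. The alternatives were DESeq2 1.42.0, its size factors in edgeR, other filters, subsets of samples and the replicate block. The block comes from the title series: deviations of same-series samples from their condition means correlated at 0.453 to 0.799 in the 28 pairs of conditions. This met the rule set for treating the series as a pairing. The main fit leaves the pairing out, since the study's methods name no block, so differences between the series enter its spread. All members and, from a list of 43 pathway genes, those called are named. The members and lists were chosen with earlier results of these data known. Some items are not reported here.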

Additional observations from a re-analysis of the deposited data

How the results depend on the processing

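The depth limits what can be said of Tlr1, Tlr2, Tlr9 and of Tlr7 without DEX, all of which rest on few counts. The number of members called with DEX in sensitized cells was 1, and it became 2 with the replicate block, 0 with at least 10 counts in every sample, a filter that removes Tlr13, 0 within PEP+/+, 0 within PEP-/- and 0 to 1 when 1 sample was left out. In activated cells it was 1, and 0 with that filter and within either genotype. For DNP without DEX it went from 1 to 2 with the block and to 0 within PEP+/+. For DNP under DEX it was 1, 2 with the block, 0 with no filter on low counts, 0 with only the conditions compared, 0 within either genotype, and 0 to 1 when 1 sample was left out. The Tlr6 call there was lost without each of PEP+/+ IgE DEX replicates 1 and 2 (adjusted p = 0.111 and 0.0837), PEP+/+ IgE DNP DEX replicates 1 and 2 (0.0906 and 0.0983), PEP-/- IgE DEX replicate 1 (0.168), PEP-/- IgE DNP DEX replicate 2 (0.161) and each of the 8 samples outside this comparison (0.0531 to 0.0631). The genotype average went from 0 to 2 members and IgE DEX alone from 0 to 1 with the block. Beyond the calls given with it above, averaged or within 1 genotype, the block changed no other call of a member. The genotype contrast over both DEX treatments, described without a test, is left out of this count. Members whose small difference changed direction were not called in either case: Tlr4 with DEX in sensitized cells (-0.01 within PEP-/-, and -0.12 to 0.60 when 1 sample was left out), Tlr6 there (-0.05 within PEP-/-, and -0.12 to 0.24), Tlr1 there (-1.29 to 0.16), Tlr4 with DEX in activated cells (0.02 with the block, 0.11 within PEP-/-, and -0.39 to 0.29), Tlr1 with DNP (without DEX 0.23 within PEP+/+ and -0.45 to 0.98, under DEX 0.08 within PEP-/- and -2.62 to 0.12), Tlr2 with DNP under DEX (0.11 within PEP-/-, and -0.63 to 0.44) and without DEX (-0.25 to 0.99), Tlr4 with DNP under DEX (-0.01 within PEP+/+, and -0.02 to 0.68), Tlr13 with DNP (-1.20 to 0.36 without and -0.12 to 0.56 under DEX) and Tlr7 with DNP under DEX (-0.63 to 0.16). The Tlr7 log2 fold change with DEX moved by more than its SE to 6.34 within PEP+/+ and 7.78 within PEP-/- in sensitized cells, and in activated cells to 9.63 without PEP+/+ IgE DNP replicate 2 and 9.37 without PEP-/- IgE DNP replicate 1. Pathway calls numbered 4 to 7 with DEX in sensitized cells, 1 to 3 in activated cells, 10 to 15 with DNP without DEX, 4 to 10 under DEX and 0 to 1 between genotypes when 1 sample was left out, where the remaining sample is assumed to vary like the other conditions. The count moved by over 1.5 times with DEX in sensitized cells without replicate 1 of either IgE DEX group or either PEP-/- IgE replicate, in activated cells without replicate 1 of either IgE DNP DEX group or any IgE DNP sample, with DNP under DEX without any sample compared but PEP+/+ IgE DNP DEX replicate 1, and between genotypes without any of the 16. They were 4, 1, 13 and 4 in the 4 treatment comparisons with only the conditions compared. Causes of these moves were not tested.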
